A study of Mus musculus with 18 samples.

Results

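The genes described here are 41 mouse genes of the endoplasmic reticulum (ER) and of the first steps of secretion, chosen by name from 55335 gene identifiers. They fall into 8 roles: 12 chaperones and co-chaperones, 6 oxidoreductases, 3 prolyl isomerases, 4 transcription factors of the unfolded protein response (UPR), 7 subunits of the translocon, 4 subunits of the COPII coat, 2 KDEL receptors and 3 genes of ER-associated degradation. Their RNA was measured in O9-1 cells, a neural crest line derived from the mouse embryo head, cultured in osteoblast differentiation medium. The 18 bulk RNA-seq libraries form 6 groups of 3. At d2.5 and at d5, Ctrl+vehicle cells carried control siRNA (siCtrl) without FGF2, Ctrl+FGF2 cells carried siCtrl with FGF2, and Y/T dKD+FGF2 cells carried siRNA pools against Yap and Taz (siY/T) with FGF2. Every group is the same wild-type line, transfected with siRNA and kept in the same medium, and no group with siY/T and without FGF2 was analysed here. Nothing in the labels says whether the 3 replicates of a group are separate cultures, so the p-values measure the spread between these libraries, which may be technical.

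Secreted and membrane proteins enter the ER through the translocon while they are made. Inside, chaperones and oxidoreductases fold them and form their disulfide bonds, prolyl isomerases help slow folders such as collagen, and COPII vesicles carry the folded cargo to the Golgi. KDEL receptors return escaped chaperones, ER-associated degradation removes proteins that fail to fold, and the UPR raises many of these genes when unfolded protein accumulates. Osteoblasts export large amounts of collagen and are known to depend on this system.

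Gene counts per library ran from 10377151 to 14698525 (median 12330911), and all 41 members had enough counts to be tested in each fit. Levels are given as CPM, a gene's share of its library's counts, scaled with TMM factors over the 18 libraries, and changes as log2 fold changes with their standard error (SE). A gene counts as having risen or fallen where its adjusted p was under 0.05. The knockdown was visible in its targets. Yap1 changed by -0.96 ± 0.042, adjusted p = 9.75e-17 in the knockdown libraries relative to Ctrl+FGF2 at d2.5 and by -1.12 ± 0.051, adjusted p = 3.55e-11 at d5, and Wwtr1, the gene of Taz, by -0.72 ± 0.036, adjusted p = 2.55e-15 and -0.80 ± 0.038, adjusted p = 4.92e-11. Of the 13 neural crest markers examined, Sox10 and Foxd3 were at 0 in every library, while 7 to 9 had a group mean above 1 CPM, among them Sox9, Twist1 and Tfap2a. The 7 osteoblast markers summed to between 9155 and 34530 CPM in a library. Of the 4 endothelial markers, Cdh5 and Tie1 were at 0 in every library and the 4 summed to at most 3.87 CPM. The haematopoietic and epithelial lists summed to at most 5.50 and 2.32 CPM. Of the 2 plasma cell markers, Mzb1 was at 0 in every library and Sdc1, which other cells also express, stood at 80.3 to 483 CPM.

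Per length of the union of a gene's exons, the 41 genes spanned a wide range in Ctrl+vehicle cells at d2.5. On the RPKM scale P4hb, a protein disulfide isomerase that is also a subunit of collagen prolyl hydroxylase, was the highest member at 565. The lectin chaperone gene Calr stood at 303 RPKM, Pdia3 at 279 RPKM and the ER Hsp90 gene Hsp90b1 at 277 RPKM. Sdf2l1, a small co-chaperone gene, was the lowest at 5.41 RPKM, with Ero1l at 9.6 RPKM next to it. The members together took 1.30% to 1.37% of the gene counts in Ctrl+vehicle libraries at d2.5, 1.16% in each Ctrl+FGF2 library and 1.15% to 1.18% in Y/T dKD+FGF2 libraries. At d5 these shares were 1.28% to 1.37%, 1.19% to 1.22% and 1.27% to 1.29%. In the libraries of d2.5 the vehicle group stood above both FGF2 groups, which overlapped, and at d5 the Y/T dKD+FGF2 libraries lay above the Ctrl+FGF2 libraries without overlap.

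**Figure D1:**
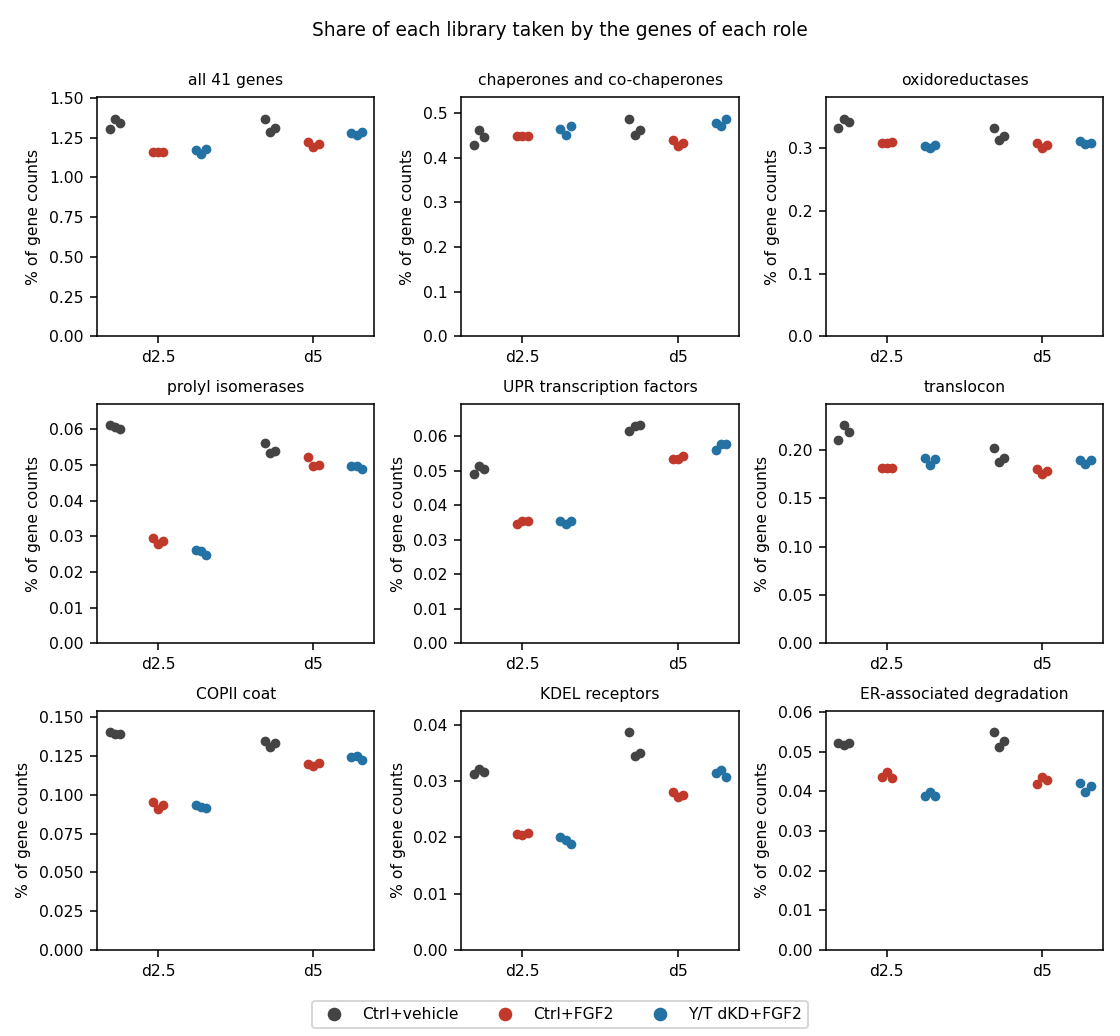
Share of each library's gene counts (y axis, %) taken by all 41 genes and by the genes of each role, at d2.5 and d5 (x axis), with 1 point per library. At d2.5 the prolyl isomerases held 0.0602% to 0.0611% in Ctrl+vehicle and 0.0277% to 0.0294% in Ctrl+FGF2, whereas the chaperones held 0.428% to 0.463% in Ctrl+vehicle and 0.449% to 0.450% in Ctrl+FGF2.

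The first comparison asked how FGF2 changed these genes in control cells. At d2.5, 30 of the 41 members fell in Ctrl+FGF2 against Ctrl+vehicle, 5 rose and 6 did not pass the test, where 34.1% of all 13677 genes tested fell and 33.5% rose. The members' median log2 fold change was -0.34, against 0.0022 over all genes. At d5, 29 members fell, 1 rose and 11 did not pass, where 23.7% of 13304 genes fell and 23.5% rose. The median was then -0.26 against 0.016. The falls reached every role at d2.5, and the 5 rises were Hsp90b1, Sdf2l1, Pdia6, Ero1l and Atf6. Markers moved with FGF2 as well: the osteoblast list summed to 17153 to 17495 CPM in Ctrl+vehicle and 9155 to 9380 CPM in Ctrl+FGF2 at d2.5, and to 32311 to 34530 and 17824 to 19211 CPM at d5. Within that list Col1a1, the type I collagen gene, went from 12531 to 12788 CPM in Ctrl+vehicle to 2144 to 2261 CPM in Ctrl+FGF2 at d2.5, while Spp1 (osteopontin) was higher with FGF2, at 3906 to 4088 CPM against 6857 to 6954 CPM. At d5 Spp1 (1213 to 1418 CPM against 1598 to 1965 CPM) and Runx2 (126 to 150.4 CPM against 172 to 187 CPM) were higher with FGF2 without overlap. The 5 chondrocyte markers summed to 569 to 798 CPM against 59.8 to 62.8 CPM at d2.5, and to 196 to 309 CPM against 270.1 to 373 CPM at d5. Of these 5, Matn1 was at 0 in every library outside Ctrl+vehicle at d2.5. The part of these marker changes in the members' changes was not tested, and in bulk RNA fewer cells of a type and less RNA per cell cannot be told apart.

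**Figure D2:**
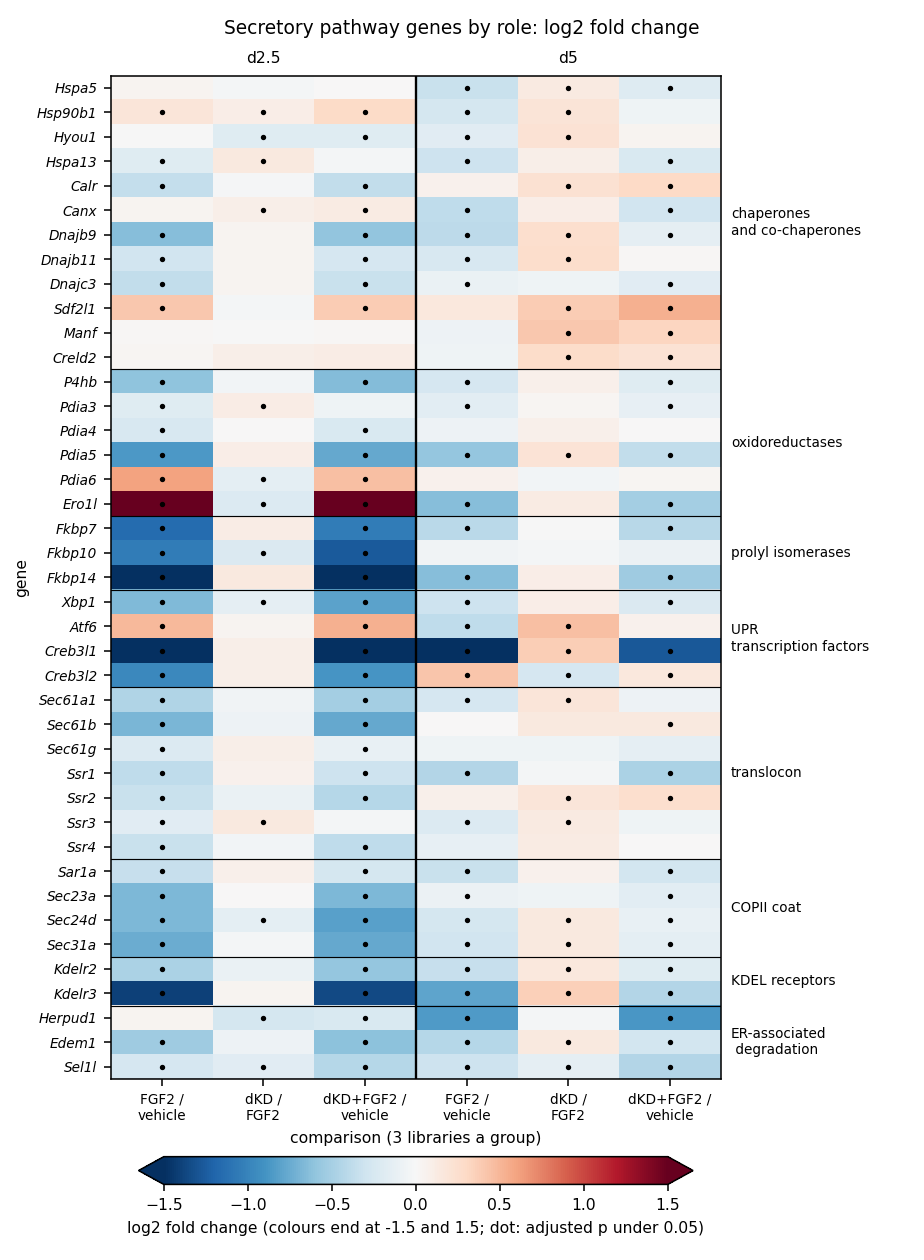
Log2 fold change (colour) of each of the 41 genes (rows, ordered by role) in the 3 comparisons of each day (columns), with a dot where the adjusted p was under 0.05. FGF2 against vehicle at d2.5 is blue across the translocon, COPII coat, KDEL receptors and prolyl isomerases and mixed among the chaperones. The knockdown against Ctrl+FGF2 at d5 is red in 11 of 12 chaperones, 9 of them with a dot.

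The chaperones had the median change nearest to 0 of the 8 roles with FGF2 at d2.5. Of 12, 5 fell (Calr, Dnajb9, Dnajb11, Dnajc3 and Hspa13), 2 rose (Hsp90b1 and Sdf2l1) and 5 did not pass (Hspa5, Hyou1, Canx, Manf and Creld2), and the median log2 fold change was 0.0085. Hspa5 encodes BiP, the central Hsp70 chaperone of the ER. It stood at 674, 753 and 706 CPM in the Ctrl+vehicle libraries at d2.5 and at 729, 741 and 747 CPM in Ctrl+FGF2. These values overlapped, and the change did not pass (0.044 ± 0.033, adjusted p = 0.243), although it did without Ctrl+vehicle replicate 2 (adjusted p = 0.0111). At d5 Hspa5 stood at 1206, 1141 and 1152 CPM in Ctrl+vehicle and 922, 937 and 902 CPM in Ctrl+FGF2. The groups were apart, with every vehicle library higher, a change of -0.33 ± 0.035, adjusted p = 5.55e-07. The largest fall among the chaperones was that of Dnajb9, a J-domain co-chaperone of BiP, whose level was 40.6, 41.2 and 43.5 CPM in Ctrl+vehicle and 26.8, 28.1 and 26.3 CPM in Ctrl+FGF2 at d2.5. It changed by -0.64 ± 0.06, adjusted p = 7.17e-11, and at d5 by -0.39 ± 0.052, adjusted p = 6.89e-06. Sdf2l1 went the other way at d2.5, from 5.59, 6.13 and 6.26 CPM in Ctrl+vehicle to 7.11, 9.02 and 7.95 CPM in Ctrl+FGF2, a low level at which the groups still did not overlap (0.41 ± 0.13, adjusted p = 0.00495). Hsp90b1, which folds integrins and other client proteins, rose by 0.19 ± 0.032 at d2.5 and changed by -0.26 ± 0.037 at d5. At d5, 8 of 12 chaperones fell with FGF2 and none rose, with a median of -0.21, and the 4 that did not pass were Calr, Sdf2l1, Manf and Creld2. The fall of Dnajc3 at d5 was lost without Ctrl+vehicle replicate 3 (adjusted p = 0.0723) or Ctrl+FGF2 replicate 1 (adjusted p = 0.0952). Manf, a secreted ER stress protein, stood at 70.2, 84.3 and 76.6 CPM in Ctrl+vehicle and 74.3, 82.5 and 80 CPM in Ctrl+FGF2 at d2.5, and these values overlapped.

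Many ER chaperone genes carry ER stress response elements, the binding sequences of ATF6 and XBP1, near their start. RefSeq promoters (GRCm38.p6, from 250 bases before to 50 bases after the start) matched 32 of the 41 members. Hyou1, Hspa13, Manf, Fkbp10, Atf6, Creb3l1, Sec61a1, Ssr2 and Kdelr2 had no promoter in this set, so nothing is known here of their motifs. The matched promoters were the ones searched. They were searched on both strands for the element ERSE (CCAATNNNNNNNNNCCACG), for ERSE-II (ATTGGNCCACG) and for the core of the UPR element (TGACGTGG). ERSE was found in the promoters of 7 members, Calr, Canx, Creld2, Dnajc3, Hsp90b1, Hspa5 and Pdia6, and in 0.119% of all 32851 promoters. ERSE-II was found in Dnajb11 and Herpud1 and in 0.0365% of all promoters, and the UPR element core in Kdelr3, Sec23a and Sec24d and in 0.676% of all promoters. ERSE and ERSE-II share their CCACG end, and no match of a motif overlapped a match of another in these promoters. Only exact matches were counted, so an element with a changed letter would be missed. Whether a factor binds these letters in O9-1 cells was not measured here. The matches are shown 5′ to 3′ in the reading of the motif, with its fixed letters in capitals.
Hspa5: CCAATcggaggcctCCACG
Hsp90b1, farther from the start: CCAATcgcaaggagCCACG
Hsp90b1, nearer to the start: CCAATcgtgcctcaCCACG
Calr: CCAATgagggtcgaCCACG
Canx: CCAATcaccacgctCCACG
Creld2: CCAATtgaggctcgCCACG
Dnajc3: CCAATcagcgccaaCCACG
Pdia6: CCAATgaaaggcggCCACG
Dnajb11: ATTGGcCCACG
Herpud1: ATTGGgCCACG
The upstream end of the ERSE of Hspa5 lies 65 bases before the start, and those of the 2 in Hsp90b1 lie 212 and 107 bases before it. The ERSE-II of Herpud1 begins 52 bases before the start, whereas that of Dnajb11 begins 7 bases after it. The 4 promoters below stand for the kinds of element found: a chaperone with 1 ERSE at chr2:34771840-34772139 (plus strand), a chaperone with 2 at chr10:86705395-86705694 (minus strand), a degradation gene with ERSE-II at chr8:94386179-94386478 (plus strand) and a KDEL receptor with the UPR element core at chr15:79516158-79516457 (plus strand). Each is written 5′ to 3′ on the strand of its gene, with the motif in capitals. The nearer ERSE of Hsp90b1 and the UPR element core of Kdelr3 lie on the opposite strand and so appear as their reverse complements.
Hspa5: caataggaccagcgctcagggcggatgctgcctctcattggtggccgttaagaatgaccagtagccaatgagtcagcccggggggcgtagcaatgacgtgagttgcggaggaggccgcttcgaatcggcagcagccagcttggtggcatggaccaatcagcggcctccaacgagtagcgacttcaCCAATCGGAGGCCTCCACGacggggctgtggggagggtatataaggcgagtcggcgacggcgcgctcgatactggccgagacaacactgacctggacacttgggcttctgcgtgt
Hsp90b1: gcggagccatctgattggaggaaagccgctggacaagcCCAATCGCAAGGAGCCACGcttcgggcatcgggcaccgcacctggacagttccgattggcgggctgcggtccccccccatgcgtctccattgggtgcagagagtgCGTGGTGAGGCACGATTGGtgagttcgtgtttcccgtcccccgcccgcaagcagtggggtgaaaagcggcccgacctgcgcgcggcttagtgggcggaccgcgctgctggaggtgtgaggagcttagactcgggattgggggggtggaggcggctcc
Herpud1: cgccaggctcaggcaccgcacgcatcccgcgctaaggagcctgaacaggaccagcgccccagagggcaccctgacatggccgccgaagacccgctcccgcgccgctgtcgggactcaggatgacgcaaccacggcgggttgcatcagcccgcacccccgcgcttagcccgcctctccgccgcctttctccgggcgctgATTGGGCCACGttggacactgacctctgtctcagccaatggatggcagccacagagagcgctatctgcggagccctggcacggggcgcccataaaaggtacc
Kdelr3: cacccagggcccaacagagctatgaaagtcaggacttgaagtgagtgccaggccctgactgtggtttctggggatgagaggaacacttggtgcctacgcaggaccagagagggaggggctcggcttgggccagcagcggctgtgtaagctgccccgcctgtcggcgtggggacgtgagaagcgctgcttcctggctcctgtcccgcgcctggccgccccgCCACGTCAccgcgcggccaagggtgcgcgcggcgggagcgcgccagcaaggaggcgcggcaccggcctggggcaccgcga

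The 9 members with ERSE or ERSE-II in the promoter and the 23 without differed in their FGF2 response at d2.5. Of the 9, 2 rose, 3 fell and 4 did not pass, the median log2 fold change was 0.038 and the range ran from -0.37 to 0.61. Of the 23, 2 rose and 21 fell, with a median of -0.61 and a range from -1.77 to 1.88. At d5 the medians were -0.24 and -0.29, with 6 of 9 and 17 of 23 members lower. For the knockdown against Ctrl+FGF2 the medians were 0.038 and 0.0094 at d2.5 and 0.14 and 0.10 at d5. The 2 sets also differ in role, since 7 of the 9 are chaperones, and the sets were formed after the changes were known, so these values are a description with no test.

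**Figure D3:**
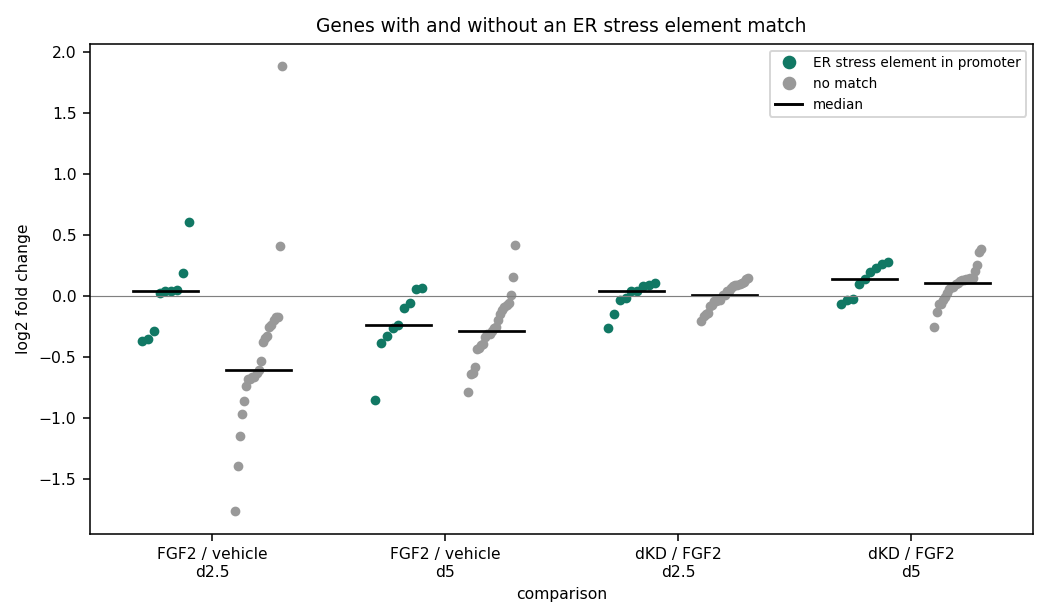
Log2 fold change (y axis) of the 9 genes with ERSE or ERSE-II in the promoter (green) and the 23 without (grey) in 4 comparisons (x axis), 1 point per gene, with the median as a line. At d2.5 the FGF2 response of the green genes lies around 0 (median 0.038) and that of most grey genes lies below it (median -0.61), and at d5 both medians lie below 0.

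The oxidoreductases split under FGF2 at d2.5, with 4 lower and 2 higher. Ero1l encodes the oxidase that passes electrons from protein disulfide isomerases to oxygen. Its level was 47.7, 51.6 and 52.9 CPM in Ctrl+vehicle and 179, 194 and 192 CPM in Ctrl+FGF2 at d2.5, a 3.69-fold rise with every FGF2 library above every vehicle library (1.88 ± 0.046, adjusted p = 1.86e-25). At d5 the order was turned, with 73.3, 59.1 and 61.6 CPM in Ctrl+vehicle and 39.3, 42.8 and 40.8 CPM in Ctrl+FGF2 (-0.64 ± 0.072, adjusted p = 1.18e-06). Ero1l was the member with the largest rise at d2.5. Pdia6, a disulfide isomerase that works with BiP, also rose at d2.5, from 372, 414 and 401 CPM to 610.2, 604 and 607 CPM (0.61 ± 0.034, adjusted p = 2.80e-16), and its change at d5 of 0.06 ± 0.043 did not pass (adjusted p = 0.278). In contrast, P4hb stood at 1587, 1649 and 1617 CPM in Ctrl+vehicle and 1069, 1069.7 and 1069 CPM in Ctrl+FGF2 at d2.5, without overlap (-0.61 ± 0.028, adjusted p = 1.81e-18). Pdia5 fell from 31.8, 30.6 and 34.2 CPM to 16.9, 18.3 and 18.3 CPM (-0.86 ± 0.07, adjusted p = 2.56e-12). At d5 both genes were again lower with FGF2, with log2 fold changes of -0.25 ± 0.033 for P4hb and -0.58 ± 0.07 for Pdia5. Pdia3 (-0.18 ± 0.029) and Pdia4 (-0.24 ± 0.033) fell by less at d2.5. In all, 4 of 6 oxidoreductases fell at d5 and none rose.

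The 3 prolyl isomerases were among the members with the largest falls. Fkbp10 (FKBP65), Fkbp14 (FKBP22) and Fkbp7 (FKBP23) encode ER proteins that speed the turn of proline bonds, and FKBP10 and FKBP14 are known for their part in collagen folding. Fkbp14 (chromosome 6, 54577604 to 54597308, GRCm38) stood at 60, 61.7 and 61.7 CPM in Ctrl+vehicle and 19.7, 17.4 and 17.2 CPM in Ctrl+FGF2 at d2.5. The FGF2 libraries held less than any vehicle library, 29.4% of the vehicle level (-1.77 ± 0.061, adjusted p = 1.27e-21). At d5 the values were 136, 127 and 134 CPM and 93.8, 82.6 and 76.6 CPM, again without overlap (-0.64 ± 0.06, adjusted p = 1.48e-07). Fkbp10, the most abundant of the 3, stood at 469, 464 and 459 CPM and 231, 219.7 and 228 CPM at d2.5 (-1.05 ± 0.033, adjusted p = 1.75e-22). At d5 it stood at 401, 389 and 381 CPM and 374, 372 and 374 CPM, and this change of -0.052 ± 0.035 did not pass (adjusted p = 0.231). Fkbp7 fell from 51.2, 49.6 and 49.5 CPM to 22.4, 21.5 and 24.1 CPM at d2.5 (-1.15 ± 0.06, adjusted p = 4.75e-17) and fell again at d5 (-0.41 ± 0.048).

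The 4 UPR transcription factors held the largest change of any member. Creb3l1 (chromosome 2, 91982328 to 92024502, GRCm38) encodes OASIS, an ER membrane protein whose released part is known to drive type I collagen expression in osteoblasts, and Creb3l2 encodes its relative BBF2H7, known for its role in cartilage secretion. Creb3l1 stood at 77.5, 100.2 and 88.1 CPM in Ctrl+vehicle at d2.5 and at 5.85, 6.62 and 6.48 CPM in Ctrl+FGF2. The FGF2 libraries held 7.07% of the vehicle level (-3.82 ± 0.10, adjusted p = 1.04e-24). At d5 the values were 172, 148 and 163 CPM and 50, 53 and 50.2 CPM, 32% of the vehicle level (-1.64 ± 0.056, adjusted p = 4.96e-13). Creb3l2 changed sign between the days. At d2.5 it fell from 138, 132 and 133 CPM to 68.6, 65.4 and 72.9 CPM (-0.97 ± 0.044, adjusted p = 1.21e-18), and at d5 it rose from 143, 164 and 155 CPM to 203, 203 and 206 CPM (0.42 ± 0.045, adjusted p = 8.06e-07). It was the single member that rose with FGF2 at d5, and the groups did not overlap on either day. Xbp1, the factor activated by splicing through IRE1, fell from 135, 137 and 138 CPM to 86.1, 87.3 and 87.3 CPM at d2.5 (-0.67 ± 0.039, adjusted p = 7.40e-16) and fell again at d5 (-0.32 ± 0.04). These counts do not separate spliced from unspliced Xbp1. Atf6, which is activated by cleavage in the Golgi, moved opposite to Creb3l2, from 115, 116 and 119 CPM to 160.2, 170.2 and 165 CPM at d2.5 (0.49 ± 0.037, adjusted p = 5.03e-13) and from 176, 209 and 191 CPM to 137, 157 and 144 CPM at d5 (-0.38 ± 0.056, adjusted p = 2.21e-05).

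**Figure D4:**
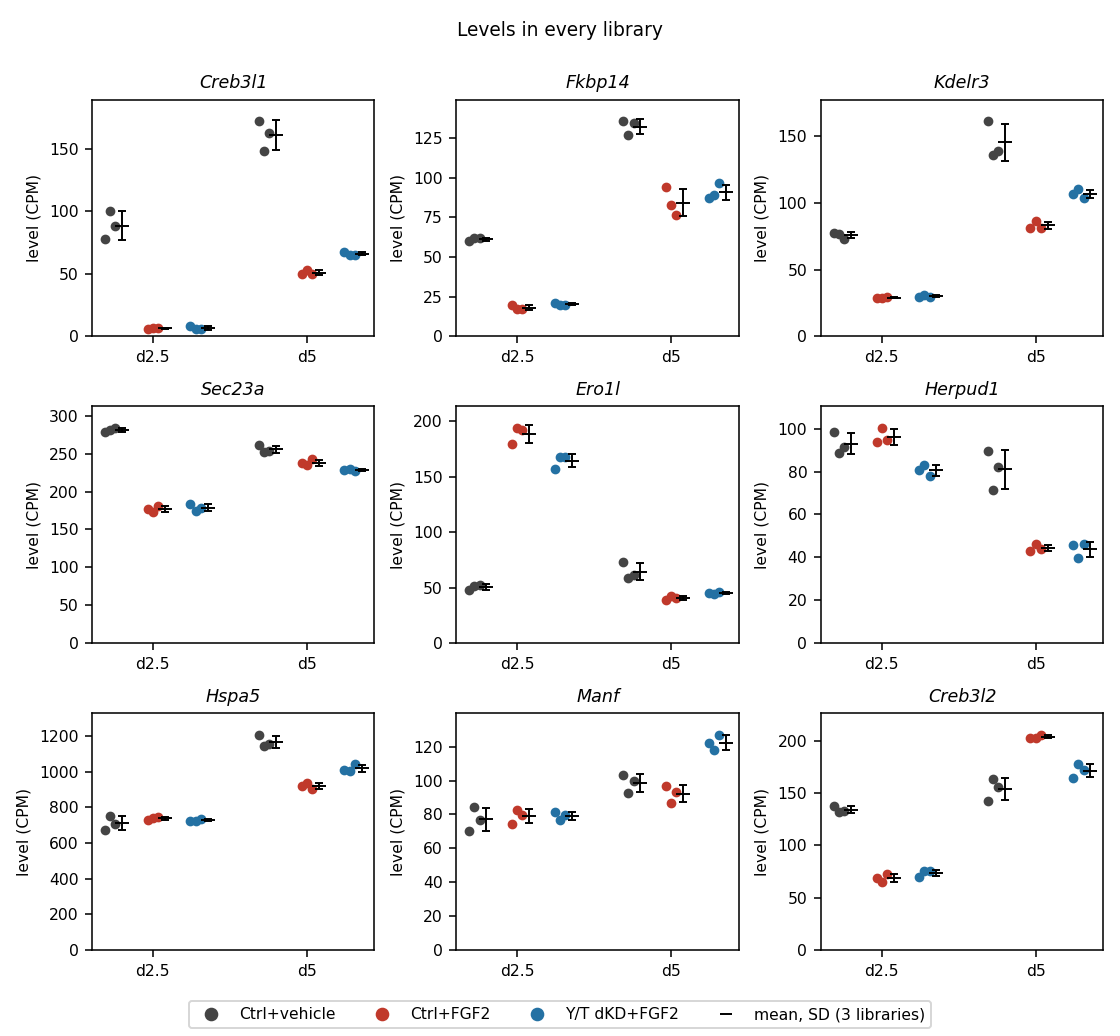
Level (y axis, CPM) of 9 genes in each of the 18 libraries, grouped by day (x axis) and treatment (colour), with the mean and SD of the 3 libraries of a group beside the points. Creb3l1, Fkbp14, Kdelr3 and Sec23a stand lower in both FGF2 groups at d2.5, Ero1l stands higher at d2.5 and lower at d5, and Herpud1 falls with FGF2 at d5.

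All 7 translocon genes fell with FGF2 at d2.5 (median log2 fold change -0.33), where 34.1% of all genes did. Sec61a1, Sec61b and Sec61g encode the 3 subunits of the Sec61 channel, and Ssr1 to Ssr4 the translocon-associated protein complex beside it. Sec61b stood at 61.2, 72.2 and 63.1 CPM in Ctrl+vehicle and 42, 38.9 and 42.5 CPM in Ctrl+FGF2 (-0.69 ± 0.058, adjusted p = 7.22e-12). Sec61a1 stood at 387, 413 and 393 CPM and 290.2, 289 and 297 CPM (-0.46 ± 0.034, adjusted p = 2.89e-13). Ssr1 stood at 445, 479.8 and 468 CPM and 362, 357 and 364 CPM (-0.38 ± 0.034, adjusted p = 2.22e-11). For each of the 7 the vehicle libraries lay above the FGF2 libraries at d2.5, but the share of all genes without such overlap was not counted. At d5, 3 of 7 fell, Sec61a1 (-0.26 ± 0.032), Ssr1 (-0.44 ± 0.042) and Ssr3 (-0.20 ± 0.035), and none rose. Sec61b stood at 46, 47.8 and 47 CPM in Ctrl+vehicle and 49.4, 44.7 and 46.7 CPM in Ctrl+FGF2 at d5, values that overlapped.

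The 4 COPII genes fell with FGF2 on both days. Sec23a and Sec24d encode the inner coat, which binds cargo, Sec31a the outer cage, and Sar1a the GTPase that starts the coat. Sec31a stood at 521, 504 and 511 CPM in Ctrl+vehicle and 311, 302 and 315 CPM in Ctrl+FGF2 at d2.5 (-0.74 ± 0.03, adjusted p = 1.19e-19). Sec23a stood at 279, 281 and 284 CPM and 177, 173 and 181 CPM (-0.68 ± 0.033, adjusted p = 9.30e-18), and Sec24d at 233, 235 and 229.6 CPM and 153, 142 and 146 CPM (-0.67 ± 0.036, adjusted p = 1.00e-16). At d2.5 these 3 genes had nearly the same log2 fold change, between -0.74 and -0.67, and Sar1a changed by -0.34 ± 0.033. At d5 Sec31a changed by -0.29 ± 0.032, adjusted p = 1.23e-06, Sec24d by -0.26 ± 0.037, adjusted p = 1.47e-05 and Sar1a by -0.34 ± 0.034, adjusted p = 3.23e-07. For Sec23a the change at d5 was -0.09 ± 0.035, adjusted p = 0.0439, a call that was lost in 12 of 18 alternative fits (adjusted p up to 0.154), among them those without Ctrl+vehicle replicate 1 or 3 and those without any 1 of the 6 libraries with FGF2 at d5.

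The 2 KDEL receptors also fell on both days. Kdelr3 (chromosome 15, 79516411 to 79527739, GRCm38) stood at 77.4, 76.7 and 72.9 CPM in Ctrl+vehicle and 28.9, 29 and 29.1 CPM in Ctrl+FGF2 at d2.5, 38% of the vehicle level (-1.40 ± 0.051, adjusted p = 6.36e-21). At d5 the values were 161, 136 and 139 CPM and 81.1, 86.3 and 81.4 CPM (-0.79 ± 0.058, adjusted p = 7.52e-09). Kdelr2, the more abundant receptor, stood at 219.7, 229 and 226 CPM and 162, 161 and 165 CPM at d2.5 (-0.48 ± 0.036, adjusted p = 3.41e-13) and changed by -0.34 ± 0.039 at d5. In neither gene did the groups overlap.

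The 3 genes of ER-associated degradation did not share a course. Herpud1, a UPR target that scaffolds the HRD1 ubiquitin ligase, stood at 98.3, 88.9 and 91.7 CPM in Ctrl+vehicle and 93.6, 100.3 and 94.7 CPM in Ctrl+FGF2 at d2.5. The values overlapped (0.038 ± 0.044, adjusted p = 0.457). At d5 it stood at 89.8, 71.6 and 82 CPM and 43.2, 46.1 and 44 CPM, 55.5% of the vehicle level, with no overlap (-0.85 ± 0.076, adjusted p = 7.28e-08). Edem1, which directs misfolded glycoproteins to degradation, fell from 163, 169.7 and 169.6 CPM to 112, 118 and 119 CPM at d2.5 (-0.53 ± 0.037, adjusted p = 4.68e-14) and fell again at d5 (-0.42 ± 0.041). Sel1l, the partner of HRD1, fell from 235, 232 and 234 CPM to 198, 201 and 192 CPM at d2.5 (-0.26 ± 0.033, adjusted p = 5.17e-08) and fell again at d5 (-0.31 ± 0.039).

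The days were then compared with each other. The FGF2 comparisons of d2.5 and d5 share no library. Of the 41 members, 22 were lower with FGF2 on both days, 3 were higher at d2.5 and lower at d5 (Hsp90b1, Ero1l and Atf6), 1 was lower and then higher (Creb3l2), and 4 did not pass at d2.5 and fell at d5 (Hspa5, Hyou1, Canx and Herpud1). The share of all genes with the same calls on both days was not counted, so these counts are a description. The test of the difference itself, the FGF2 effect at d5 minus that at d2.5, was higher for 20 members and lower for 9, where 31.8% and 29.1% of 14198 genes were. All 3 prolyl isomerases, 4 of 7 translocon genes and 3 of 4 COPII genes had a higher effect at d5, that is, a smaller fall or none. Of the chaperones, 5 had a lower and 3 a higher effect at d5, and of the oxidoreductases 2 had a lower and 3 a higher one. Among the 5 chaperones was Hspa5 (-0.40 ± 0.049, adjusted p = 4.00e-08). The calls of Hspa13 and Hyou1, also lower, were lost in 8 and 2 of 25 alternative fits. Day is also the batch named in the labels, so time and batch cannot be told apart in these tests.

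**Figure D5:**
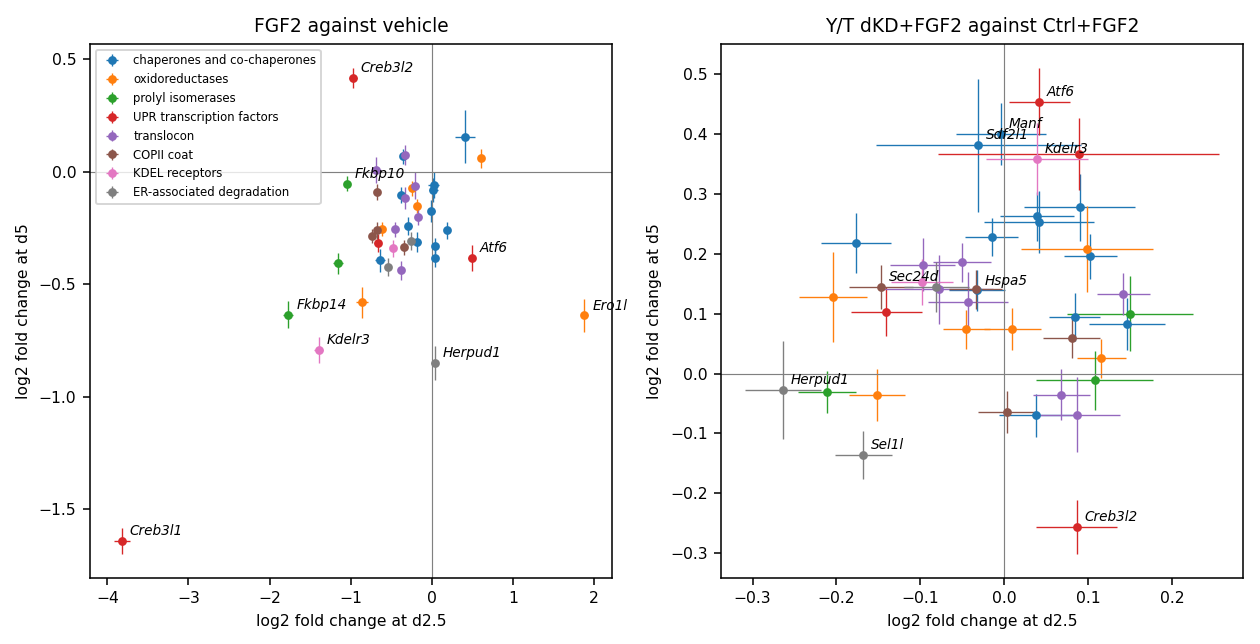
Log2 fold change at d2.5 (x axis) against that at d5 (y axis) for FGF2 against vehicle (left) and for the knockdown against Ctrl+FGF2 (right), 1 point per gene, coloured by role, with bars of 1 SE; the scales of the panels differ. With FGF2 most genes lie in the lower left, and with the knockdown most lie above 0 at d5 and on both sides of 0 at d2.5.

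The second comparison asked what the knockdown of Yap and Taz changed under FGF2. It shares the Ctrl+FGF2 libraries with the first, so the values of each stand for themselves. At d2.5, 8 members fell in the knockdown libraries relative to Ctrl+FGF2, 5 rose and 28 did not pass, where 13.6% of all genes fell and 10.8% rose. The median was 0.0029 against 0.0013 over all genes, and no member changed by 1.5-fold. At d5, 20 members rose, 2 fell and 19 did not pass, where 15.6% of all genes rose and 16.1% fell. The median was 0.13 against 0.0034. No member changed by 1.5-fold at d5 either. The sum of the osteoblast list stood above Ctrl+FGF2 in the knockdown libraries of either day. It was 10760 to 11176 CPM against 9155 to 9380 CPM at d2.5 and 24456 to 26114 CPM against 17824 to 19211 CPM at d5. At d2.5 Spp1 was higher in the knockdown libraries (8461 to 8971 CPM against 6857 to 6954 CPM), as were Runx2, Sp7 and Ibsp. Col1a1 was lower there, at 1948 to 2091 CPM against 2144 to 2261 CPM, without overlap. Alpl and Bglap were below 1 CPM in both groups at d2.5. The part of these differences in the members' changes was not tested.

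Of the 12 chaperones, 9 rose with the knockdown at d5 (Hspa5, Hsp90b1, Hyou1, Calr, Dnajb9, Dnajb11, Sdf2l1, Manf and Creld2), none fell, and Hspa13, Canx and Dnajc3 did not pass. Manf stood at 96.8, 86.8 and 93.3 CPM in Ctrl+FGF2 and 122, 118 and 127 CPM in Y/T dKD+FGF2, every knockdown library above every control (0.40 ± 0.052, adjusted p = 1.02e-05). Its values at d2.5, 74.3, 82.5 and 80 CPM and 81.4, 76.7 and 79.5 CPM, overlapped. Hspa5 stood at 922, 937 and 902 CPM in Ctrl+FGF2 and 1007, 1004 and 1041 CPM in Y/T dKD+FGF2 at d5, again without overlap (0.14 ± 0.035, adjusted p = 0.00507). Sdf2l1 rose from 9.01, 9.93 and 9.16 CPM to 13.3, 11 and 12.6 CPM (0.38 ± 0.11, adjusted p = 0.0138), but did not pass in DESeq2 (adjusted p = 0.0689) or without Y/T dKD+FGF2 replicate 1 (adjusted p = 0.0748). Dnajb9 rose from 54, 62 and 57 CPM to 68.6, 70.3 and 68.4 CPM (0.25 ± 0.052, adjusted p = 0.00113). The remaining rises among the chaperones lay between 0.20 for Hsp90b1 and 0.28 for Creld2. At d2.5, 3 chaperones rose with the knockdown, Hsp90b1 by 0.10 ± 0.032, Canx by 0.084 ± 0.03 and Hspa13 by 0.15 ± 0.045, and Hyou1, a large Hsp70 relative, fell (-0.18 ± 0.042). The other 2 members that rose at d2.5 were the oxidoreductase gene Pdia3 (0.12 ± 0.03) and the translocon gene Ssr3 (0.14 ± 0.032). The 3 chaperone rises were each lost when single libraries were left out (adjusted p from 0.0528 to 0.203), and that of Canx also in the fit of all 18 libraries, with a replicate block and on unstranded counts. The members that rose numbered 2 without Ctrl+FGF2 replicate 1 or 3 or Y/T dKD+FGF2 replicate 3, and 3 without Ctrl+FGF2 replicate 2 or Y/T dKD+FGF2 replicate 1.

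Among the UPR factors, Atf6 and Creb3l1 rose with the knockdown at d5 and Creb3l2 fell. Atf6 stood at 137, 157 and 144 CPM in Ctrl+FGF2 and 193, 204 and 205 CPM in Y/T dKD+FGF2 (0.45 ± 0.056, adjusted p = 6.23e-06), the largest rise of any member. Creb3l1 stood at 50, 53 and 50.2 CPM and 67.7, 65.5 and 65.2 CPM (0.37 ± 0.061, adjusted p = 0.000149). Creb3l2 stood at 203, 203 and 206 CPM and 165, 178 and 172 CPM (-0.26 ± 0.045, adjusted p = 0.000258), so that the groups were apart in all 3 genes. At d2.5 Creb3l1 stood at 5.85, 6.62 and 6.48 CPM and 8.53, 5.91 and 5.92 CPM, values that overlapped. Xbp1 fell at d2.5 from 86.1, 87.3 and 87.3 CPM to 83.1, 76.1 and 78.9 CPM (-0.14 ± 0.042, adjusted p = 0.0134), a call lost without Y/T dKD+FGF2 replicate 2 (adjusted p = 0.062) and in DESeq2 (adjusted p = 0.057).

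Both KDEL receptors rose with the knockdown at d5. Kdelr3 stood at 81.1, 86.3 and 81.4 CPM in Ctrl+FGF2 and 107, 109.8 and 104 CPM in Y/T dKD+FGF2 (0.36 ± 0.06, adjusted p = 0.000166), and Kdelr2 at 206, 197 and 201 CPM and 221, 230.0 and 222 CPM (0.15 ± 0.039, adjusted p = 0.00552). Of the translocon genes, Sec61a1, Ssr2 and Ssr3 rose at d5 and 4 did not pass. Sec61a1 stood at 326, 327 and 321 CPM and 371, 370.1 and 372 CPM (0.19 ± 0.033, adjusted p = 0.000252). Of the COPII genes, Sec31a rose from 422, 432 and 426 CPM to 474, 478 and 465 CPM (0.14 ± 0.032, adjusted p = 0.00267) and Sec24d from 237, 248 and 245 CPM to 266, 277 and 267 CPM (0.14 ± 0.037, adjusted p = 0.00567). Sec23a stood at 237, 235 and 243 CPM in Ctrl+FGF2 and 228, 230.3 and 227 CPM in Y/T dKD+FGF2 and did not pass (adjusted p = 0.179). Sec24d had fallen with the knockdown at d2.5 (-0.15 ± 0.038), a call lost without Ctrl+FGF2 replicate 1 (adjusted p = 0.0524).

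The oxidoreductases and prolyl isomerases had few calls with the knockdown at d5, where 15.6% of all genes rose and 16.1% fell. Sets of 6 and 3 genes cannot be told apart from these shares. The log2 fold change was above 0 in 5 of the 6 oxidoreductases and in 1 of the 3 prolyl isomerases. Of 6 oxidoreductases 1 rose, Pdia5 (0.21 ± 0.072, adjusted p = 0.0359), a call lost in DESeq2, without Ctrl+FGF2 replicate 1 or 2 and without any 1 of the Y/T dKD+FGF2 libraries (adjusted p up to 0.103). P4hb stood at 1346, 1394 and 1384 CPM in Ctrl+FGF2 and 1458, 1456 and 1443 CPM in Y/T dKD+FGF2 and did not pass (adjusted p = 0.0979). Of the 3 prolyl isomerases none passed at d5. Fkbp14 stood at 93.8, 82.6 and 76.6 CPM and 87.4, 88.8 and 96.4 CPM, values that overlapped. At d2.5 Fkbp10 fell with the knockdown, from 231, 219.7 and 228 CPM to 204, 198 and 188 CPM (-0.21 ± 0.035, adjusted p = 4.27e-05), and so did Ero1l, from 179, 194 and 192 CPM to 158, 168 and 168 CPM (-0.20 ± 0.04, adjusted p = 0.000358), and Pdia6 (-0.15 ± 0.034). Of the degradation genes, Sel1l fell at d2.5 from 198, 201 and 192 CPM to 176, 177 and 177 CPM (-0.17 ± 0.034, adjusted p = 0.000498) and at d5 from 237, 261 and 254 CPM to 231, 228 and 228 CPM (-0.14 ± 0.04, adjusted p = 0.0132). The fall at d5 was lost without Ctrl+FGF2 replicate 2 or 3 or Y/T dKD+FGF2 replicate 3 (adjusted p up to 0.0694). Herpud1 fell at d2.5 from 93.6, 100.3 and 94.7 CPM to 80.7, 83.1 and 77.9 CPM (-0.26 ± 0.046, adjusted p = 7.35e-05), and its values at d5, 43.2, 46.1 and 44 CPM and 45.8, 39.9 and 46 CPM, overlapped. Edem1 rose at d5 by 0.14 ± 0.041 (adjusted p = 0.0121), a call lost without Ctrl+FGF2 replicate 3 or Y/T dKD+FGF2 replicate 1.

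The knockdown effect was higher at d5 than at d2.5 for 17 members and lower for 1, Creb3l2, where 11.6% and 9.35% of all genes were. The 17 held 5 chaperones, both KDEL receptors, 2 each of the oxidoreductases, UPR factors, translocon and COPII genes, and 1 each of the prolyl isomerases (Fkbp10) and degradation genes (Edem1). The call of Hspa5 (0.17 ± 0.049, adjusted p = 0.0135) was lost without Ctrl+FGF2 replicate 3 of d2.5 (adjusted p = 0.0534). Manf (0.40 ± 0.081, adjusted p = 0.000498), Atf6 (0.41 ± 0.07, adjusted p = 7.66e-05) and Hyou1 (0.39 ± 0.067, adjusted p = 6.70e-05) had the largest differences among them.

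The third comparison placed Y/T dKD+FGF2 cells against Ctrl+vehicle cells, and shares libraries with both others. Of the siRNA targets, Yap1 was lower than vehicle at d2.5 (-1.18 ± 0.041, adjusted p = 1.58e-21). Wwtr1 did not pass at d2.5, and its values overlapped (-0.065 ± 0.037, adjusted p = 0.122). In Ctrl+FGF2 against Ctrl+vehicle Wwtr1 had risen at d2.5 (0.65 ± 0.035, adjusted p = 1.30e-16). At d5 both targets were lower than vehicle (-1.05 ± 0.052 for Yap1 and -0.89 ± 0.038 for Wwtr1). At d2.5, 29 members were lower in Y/T dKD+FGF2 and 6 higher, where 35.7% and 34.1% of all genes were, with a median of -0.37. At d5, 23 were lower and 7 higher, where 21.1% and 20.7% were, with a median of -0.14. The 7 higher at d5 were Calr, Sdf2l1, Manf, Creld2, Creb3l2, Sec61b and Ssr2. Manf stood at 103, 92.6 and 99.7 CPM in Ctrl+vehicle and 122, 118 and 127 CPM in Y/T dKD+FGF2 (0.32 ± 0.051, adjusted p = 7.23e-05). Calr stood at 1025, 1011 and 1005 CPM and 1233, 1225 and 1258 CPM (0.30 ± 0.032, adjusted p = 9.25e-07). The rise of Creb3l2 was lost without Y/T dKD+FGF2 replicate 2 (adjusted p = 0.0699), and that of Sec61b in 10 of 18 alternative fits (adjusted p up to 0.231), 6 of which left out 1 library each. Those 6 were Ctrl+vehicle replicates 1, 2 and 3, Ctrl+FGF2 replicate 3 and Y/T dKD+FGF2 replicates 1 and 2. Creb3l1 stood far below vehicle, at 172, 148 and 163 CPM against 67.7, 65.5 and 65.2 CPM (-1.28 ± 0.054, adjusted p = 6.63e-12), and Herpud1 stood at 89.8, 71.6 and 82 CPM against 45.8, 39.9 and 46 CPM (-0.88 ± 0.076, adjusted p = 5.72e-08). The 3 degradation genes, both KDEL receptors and all 4 COPII genes were lower than vehicle on both days, although the fall of Sec24d at d5 was lost without Ctrl+vehicle replicate 3 or Y/T dKD+FGF2 replicate 1 or 3 (adjusted p up to 0.0798).

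Along the culture, most members rose from d2.5 to d5 in every group. In Ctrl+vehicle 28 rose and 7 fell, where 33.1% and 33.2% of all genes did, in Ctrl+FGF2 30 rose and 7 fell, where 41.2% and 38.8% did, and in Y/T dKD+FGF2 33 rose and 5 fell, where 40.3% and 38.1% did. With upper-quartile factors the split in Ctrl+vehicle was 26 and 12. Hspa5 rose by 0.71 ± 0.035 in the vehicle group, by 0.32 ± 0.035 with FGF2 alone and by 0.49 ± 0.035 with FGF2 and the knockdown. Creb3l1 rose by 0.86 ± 0.065 in Ctrl+vehicle and by 3.01 ± 0.11 and 3.29 ± 0.11 in the FGF2 groups, from the low levels given above. Ero1l rose by 0.35 ± 0.063 in Ctrl+vehicle and fell by 2.20 and 1.87 on the log2 scale in the control and knockdown groups with FGF2. Herpud1 fell by 1.11 and 0.88 on the log2 scale in those groups. In Ctrl+vehicle its change of -0.20 ± 0.06 came with values that overlapped and was lost without replicate 2 of d5 (adjusted p = 0.0845).

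A wider list of 104 genes of the same pathway, none of them a member, gave the setting. With FGF2 at d2.5, 68 of the 101 tested fell and 12 rose, where 34.1% and 33.5% of all genes did, and at d5, 65 of 100 fell and 7 rose, where 23.7% and 23.5% did. The class of COPI coat genes with Kdelr1 held 10 genes, which all fell at d2.5. Of 25 genes of the translocon class, among them the signal recognition particle, signal peptidase and oligosaccharyltransferase, 15 fell and none rose. UPR sensors and transcription factors were mixed at d2.5, with 5 of 9 higher and 3 lower. Atf4, the factor translated under eIF2α phosphorylation, stood at 377, 352 and 371 CPM in Ctrl+vehicle and 593, 610.1 and 604 CPM in Ctrl+FGF2 at d2.5 (0.71 ± 0.031, adjusted p = 6.60e-19). At d5 it stood at 443, 289 and 367 CPM and 119, 126 and 126 CPM (-1.55 ± 0.10, adjusted p = 1.46e-09). Its target Ddit3 (CHOP) moved with it, by 0.68 ± 0.069, adjusted p = 2.78e-10 at d2.5 and -1.48 ± 0.16, adjusted p = 5.31e-07 at d5. Ddit3 has more than 1 identifier in the annotation and only the lower was counted, so its counts may be partial. Among the genes of the list whose mean log2 CPM reached 1, the largest falls at d2.5 were those of Copz2, a COPI subunit (-1.32 ± 0.055, adjusted p = 1.81e-19), and Qsox1, a sulfhydryl oxidase of the secretory pathway (-1.04 ± 0.037, adjusted p = 3.93e-21). At d5 Atf6b rose with FGF2 (0.33 ± 0.071, adjusted p = 0.000924), as did Srp54a (0.64 ± 0.21, adjusted p = 0.0186), a gene with close copies whose reads may be split.

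With the knockdown, 20 of the 101 genes fell and 14 rose at d2.5, where 13.6% and 10.8% of all genes did. At d5, 14 of 100 fell and 16 rose, near the 16.1% and 15.6% of all genes. Among those whose mean log2 CPM reached 1, the largest rises at d2.5 were those of Dnajc10, an ER disulfide reductase (0.24 ± 0.037, adjusted p = 1.35e-05), and Eif2ak3, the UPR kinase PERK (0.22 ± 0.059, adjusted p = 0.00679). The largest falls were those of Dad1, a subunit of oligosaccharyltransferase (-0.47 ± 0.056, adjusted p = 2.90e-07), and Ern1, which encodes IRE1α (-0.41 ± 0.07, adjusted p = 6.97e-05). At d5 Qsox1 rose from 396, 402 and 400.3 CPM to 526, 564 and 529 CPM (0.43 ± 0.04, adjusted p = 2.32e-07) and Fkbp11, a prolyl isomerase, rose by 0.39 ± 0.11, adjusted p = 0.0125. Tmx2, a membrane thioredoxin (-0.47 ± 0.09, adjusted p = 0.000546), and Copg2, a COPI subunit (-0.34 ± 0.053, adjusted p = 9.67e-05), fell. Of the wider list's chaperones 3 of 11 rose with the knockdown at d5 and none fell. Against Ctrl+vehicle, 68 of the wider list were lower in Y/T dKD+FGF2 and 13 higher at d2.5, where 35.7% and 34.1% of all genes were, and 61 lower and 9 higher at d5, where 21.1% and 20.7% were.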

How the data were processed

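RNA was measured by poly(A) RNA-seq (SMARTER kit) in 18 libraries of O9-1 cells, 3 in each of 6 groups, grouped by the labels. The authors deposited raw counts of reads per gene and library, in columns for unstranded, forward and reverse reads. The processing notes name STAR, featureCounts, FastQC and Picard, and the build mm10, without versions. The reverse-strand column was used, since 96.0% to 96.6% of stranded gene counts fell there. Reads assigned to no gene (27.0% to 34.4%) were left out. Gene names came from GENCODE M21 (GRCm38) by Ensembl identifier (55154 of 55335 matched). Gene counts per library ran from 10377151 to 14698525.

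Each day's 9 libraries were fitted with edgeR's quasi-likelihood test (edgeR 4.0.16, R 4.3.3) with TMM factors and the filterByExpr filter, leaving 13677 genes at d2.5 and 13304 at d5. A fit of all 18 libraries (14198 genes) gave the changes from d2.5 to d5 and the differences between days. P-values were Benjamini-Hochberg adjusted over all genes tested at 0.05, and the SE is the absolute log2 fold change over the square root of F. The steps were also run on counts simulated with known changes and a single fixed spread. That setting is simpler than these data, so it gives no rate of false calls here. RPKM used exon-union lengths. Promoters were RefSeq sequences of GRCm38.p6. Poly(A) counts hold neither protein levels nor splicing or cleavage of the UPR factors.

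Up to 3 called members per role with the largest change in the FGF2 or knockdown comparison of either day were singled out. Their values were given by library for 1 or more comparisons. Also given were the 2 largest rises and falls per comparison among called genes of the wider list whose mean log2 CPM reached 1. Members and lists were chosen with earlier results of these data known. Hspa5, Hsp90b1, Atf6, Pdia6, Calr and the other members described with values, the motifs and the fit on unstranded counts were chosen after the data were seen. DESeq2 1.42.0, other size factors, other filters and thresholds, other sets of libraries, a replicate block and leaving out each library were tried as alternatives.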

Additional observations from a re-analysis of the deposited data

Results flagged for a closer look

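Among the 23 genes singled out by size of change, 17 differed between the days in the FGF2 effect and 12 in the knockdown effect, by the test of the difference itself in the fit of all 18 libraries. Over all genes, 31.8% had a higher and 29.1% a lower FGF2 effect at d5, and 11.6% and 9.35% a higher and lower knockdown effect. The 23 were chosen for a large change on either day, which favours a difference from the other day, so these counts are a description. Values are log2 fold change at d5 minus log2 fold change at d2.5, and day cannot be told apart from the batch named in the labels.

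Under FGF2 the 2 negative differences were those of Ero1l (-2.55 ± 0.086, adjusted p = 1.77e-20), higher at d2.5 and lower at d5 with FGF2, and of Herpud1 (-0.91 ± 0.089, adjusted p = 3.43e-10), which fell at d5. The largest positive differences were those of Creb3l1 (2.16 ± 0.14, adjusted p = 2.95e-14), whose fall was smaller at d5, and of Creb3l2 (1.36 ± 0.066, adjusted p = 7.26e-17), which fell at d2.5 and rose at d5. The prolyl isomerases followed, with 1.11 for Fkbp14, 0.97 for Fkbp10 and 0.72 for Fkbp7. Sec61b, the channel subunit, differed by 0.67, Kdelr3 by 0.58 and Sec23a by 0.57. The other COPII genes differed by 0.43 (Sec31a) and 0.38 (Sec24d). Smaller positive differences were 0.33 for P4hb, 0.33 for Xbp1, 0.26 for Pdia5, 0.22 for Dnajb9 and 0.18 for Sec61a1. DESeq2 did not call those of Dnajb9 and Pdia5. That of Dnajb9 was also lost without Ctrl+FGF2 replicate 3 of d2.5 or replicate 2 of d5 (adjusted p up to 0.0806). That of Pdia5 was also lost without Ctrl+vehicle replicate 3 or Ctrl+FGF2 replicate 1 of d2.5, and without Ctrl+vehicle replicate 2 or 3 or Ctrl+FGF2 replicate 3 of d5 (adjusted p up to 0.1003).

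For the knockdown, Creb3l2 was the member with a negative difference (-0.34 ± 0.069, adjusted p = 0.000456). Manf had the largest positive difference of the 12 (0.40 ± 0.081, adjusted p = 0.000498), followed by Ero1l (0.33), Kdelr3 (0.32) and Sec24d (0.29). Kdelr2 differed by 0.25, Xbp1 by 0.24, Sec61a1 by 0.23 and Edem1 by 0.22. Fkbp10 differed by 0.18, Sec31a by 0.17 and P4hb by 0.12. The call of P4hb (adjusted p = 0.0419) was lost in 18 of 25 alternative fits (adjusted p up to 0.276), among them RLE and upper-quartile factors, the replicate block and 13 fits that left out 1 library. Leaving out Ctrl+vehicle replicate 2 or Y/T dKD+FGF2 replicate 1 of d2.5, or Ctrl+vehicle replicate 1 or 2 or Ctrl+FGF2 replicate 2 of d5, did not end it. Those of Fkbp10 and Sec31a were lost with no filter on low counts, and that of Fkbp10 without Ctrl+FGF2 replicate 1 of d2.5 (adjusted p from 0.0558 to 0.0624).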

How the results depend on the processing

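Counts of members are given as higher and lower. A 1.5-fold minimum left 2 and 14 of the 5 and 30 calls for FGF2 at d2.5, 0 and 5 at d5, 0 and 0 for the knockdown on each day, 1 and 15 at d2.5 and 0 and 2 at d5 for the knockdown group against vehicle, 6 and 3 for the day difference of the FGF2 effect, 0 and 0 for that of the knockdown effect, and 8 and 0, 13 and 3, and 17 and 3 for d5 against d2.5 in the vehicle, FGF2 and knockdown groups. At an adjusted p under 0.01, 2 members rose with the knockdown at d2.5 and 1 fell at d5. With upper-quartile factors, 2 members rose with FGF2 at d5, 2 had a lower knockdown effect at d5, and 12 fell from d2.5 to d5 in Ctrl+vehicle. Member medians with upper-quartile factors were -0.378 (FGF2, d2.5), -0.234 (FGF2, d5), -0.122 (knockdown group against vehicle, d5), 0.206 (FGF2 day difference), 0.204 (d5 against d2.5, Ctrl+vehicle) and 0.453 (Y/T dKD+FGF2). The all-gene median then shifted by -0.111 for the Ctrl+vehicle day comparison and by 0.124 for the FGF2 day difference. In the former Canx (-0.092) and P4hb (-0.062), neither called with TMM, turned sign, and relative to the shift they stood at 0.0192 and 0.0489. RLE factors gave medians of 0.0890 (FGF2 day difference) and 0.318 (Ctrl+FGF2 days), DESeq2 0.0879 and 0.318, no filter -0.334 (FGF2, d2.5) and 0.455 (Y/T dKD+FGF2 days), a minimum of 10 counts -0.352 and 0.458, all 18 libraries in 1 fit -0.332 (FGF2, d2.5), and unstranded counts, an alternative added after seeing the data, -0.334. The cause of these shifts was not tested.

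Leaving out 1 library at a time gave medians of -0.359 to -0.319 (FGF2, d2.5), -0.282 to -0.259 (FGF2, d5), -0.158 to -0.132 (knockdown group against vehicle, d5), 0.0955 to 0.159 (FGF2 day difference), and 0.238 to 0.34, 0.312 to 0.336 and 0.442 to 0.488 (days in the vehicle, FGF2 and knockdown groups). With the knockdown 2 to 5 members rose at d2.5, and 1 to 2 fell at d5, with 1 without Ctrl+FGF2 replicate 2 or 3 or Y/T dKD+FGF2 replicate 3. The members with a lower knockdown effect at d5 numbered 1 to 2, with 2 without Y/T dKD+FGF2 replicate 2 of d2.5. A fit with the replicate block called 4 members higher with the knockdown at d2.5 and 16 with a higher knockdown effect at d5, and 449 of 451 member calls did not change. Deviations of same-numbered libraries correlated at r from -0.0722 to 0.115 in 18 pairs, against -0.123 to 0.0892 in 36 others. The highest were Ctrl+vehicle with Ctrl+FGF2 at d5 (0.0975, 0.115 and 0.0151), but not every library there correlated best with its own number, and not every pair passed 0.1, so the libraries were treated as sharing only a number.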

Other observations

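Genes of the wider secretory list also changed between the days. Sec16b, a scaffold of ER exit sites, stood at 1.79, 1.29 and 0.541 CPM in Ctrl+vehicle at d2.5 and 19.2, 19.6 and 18 CPM at d5 (3.93 ± 0.20, adjusted p = 8.21e-17). It rose in Ctrl+FGF2 (3.94 ± 0.30, adjusted p = 4.96e-13) and in Y/T dKD+FGF2 (3.63 ± 0.29, adjusted p = 1.95e-12) as well. Copz2 rose in Ctrl+FGF2 (1.63 ± 0.054, adjusted p = 7.70e-22) and Qsox1 in Y/T dKD+FGF2 (1.77 ± 0.043, adjusted p = 3.82e-25). Dnajc1, a co-chaperone of BiP, rose in Ctrl+vehicle (0.97 ± 0.048, adjusted p = 5.10e-17), where the signal peptidase subunit Spcs2 (-0.45 ± 0.051, adjusted p = 5.89e-09) and the COPII subunit Sec24c (-0.42 ± 0.038, adjusted p = 5.94e-11) fell. Atf4 fell from d2.5 to d5 in Ctrl+FGF2 (-2.29 ± 0.08, adjusted p = 2.88e-21) and Y/T dKD+FGF2 (-1.92 ± 0.079, adjusted p = 2.02e-19), and Ddit3 fell with it (-1.86 ± 0.13, adjusted p = 6.46e-14 and -1.62 ± 0.14, adjusted p = 5.60e-12).

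The day difference of the FGF2 effect was -2.28 for Atf4 and -2.18 for Ddit3, 1.16 for Os9, a lectin of ER-associated degradation, and 1.08 for Qsox1. For the knockdown effect it was positive for Serpinh1, which encodes the collagen chaperone HSP47 (0.55 ± 0.048, adjusted p = 1.73e-09), and for Fkbp11 (0.58 ± 0.17, adjusted p = 0.0121), and negative for Tmx2 (-0.65 ± 0.10, adjusted p = 2.80e-05) and Tmx4 (-0.41 ± 0.093, adjusted p = 0.0016). In the knockdown group at d2.5, relative to vehicle, Ero1lb (0.64 ± 0.16, adjusted p = 0.000774) and Atf4 (0.52 ± 0.031, adjusted p = 1.88e-15) rose. Copz2 (-1.31 ± 0.056, adjusted p = 3.39e-19) and Os9 (-1.11 ± 0.04, adjusted p = 4.36e-21) fell there. At d5 Qsox1 (0.49 ± 0.04, adjusted p = 2.35e-08) and Dad1 (0.29 ± 0.05, adjusted p = 0.000164) rose. Ddit3 (-1.52 ± 0.16, adjusted p = 4.76e-07) and Atf4 (-1.37 ± 0.10, adjusted p = 5.85e-09) fell at d5.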
